A study of Mus musculus with 6 samples.

Results

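Interleukins, chemokines and their receptors are the secreted signals, and the membrane proteins that read them, by which immune cells find each other and instruct each other. The genes described here are all symbols of the count table that begin with Il, Ccl, Ccr, Cxcl or Cxcr followed by a digit. There were 138 of them among 35186 symbols. By role, assigned by hand from general knowledge, 73 are counted as ligand genes and 58 as receptor genes, and the other 7 are 2 antagonist genes, 1 soluble binding protein gene, 1 enzyme gene, 1 antisense gene and 2 pseudogenes. Among the 73 is Cxcl11, which GENCODE annotates as a polymorphic pseudogene. Of the 138, 26 were put in a list of genes known in B cells.

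RNA was sequenced from memory B cells that bound the hapten antigen NP, sorted from the spleens of C57BL/6J mice, with about 1000 cells per library. There were 3 libraries labelled Nix-/-Bnip3-/- (DKO) and 3 wild-type libraries (WT). Nix, also called Bnip3l, and Bnip3 are outer mitochondrial membrane proteins that mark mitochondria for removal by autophagy. The labels name no age, no deleted exons, no tissue of deletion and no number of animals behind a library. A p-value here therefore sets the difference between the groups against the spread of these libraries, and that spread may be technical.

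Interleukins bind receptors made of 2 or more chains, of which 1 is often shared: the common gamma chain Il2rg serves interleukins 2, 4, 7, 9, 15 and 21, and Il6st serves the interleukin 6 family. Most of them signal through JAK kinases and STAT factors, while the interleukin 1 and interleukin 17 families signal through adaptor proteins to NF-kB. Chemokines bind receptors that couple to G proteins and guide cell movement; in the spleen, Cxcr5 draws B cells to follicles, Ccr7 to the T cell border and Cxcr4 to the dark zone of germinal centres. Memory B cells are known for Ccr6, Il9r and, on part of them, Cxcr3.

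The promoter windows printed here belong to genes whose values follow. They were taken from the tested members whose groups did not overlap and that have an entry in the RefSeq table (GRCm38.p6, the same coordinates as mm10): of 9 such members 6 had one, and the windows of Il6, Cxcl9, Ccr1 and Il1bos are shown because they include both the sequences with a match and one without. Each runs 5′ to 3′ on the strand of its gene, from 250 bases before the start to 50 after it. Capitals mark a match on either strand to GGG, any 2 bases, TT, any base and CC, a short form of the NF-kB site, or to TTCNNNGAA, a short form of the STAT site; the 2 motifs do not overlap in these windows. The windows of the other members with an entry, Il1rl1 and Il33, are not shown and held no match to either motif. Il6 lies at chr5:30012864-30013163 (plus strand), Cxcl9 at chr5:92328030-92328329 (minus), Ccr1 at chr9:123968643-123968942 (minus) and Il1bos at chr2:129369652-129369951 (plus).
Il6: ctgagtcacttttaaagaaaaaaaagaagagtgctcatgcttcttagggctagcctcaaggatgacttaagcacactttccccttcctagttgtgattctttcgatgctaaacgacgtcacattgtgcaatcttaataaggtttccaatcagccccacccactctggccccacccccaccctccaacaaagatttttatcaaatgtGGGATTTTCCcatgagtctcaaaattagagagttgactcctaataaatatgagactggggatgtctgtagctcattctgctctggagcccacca
Cxcl9: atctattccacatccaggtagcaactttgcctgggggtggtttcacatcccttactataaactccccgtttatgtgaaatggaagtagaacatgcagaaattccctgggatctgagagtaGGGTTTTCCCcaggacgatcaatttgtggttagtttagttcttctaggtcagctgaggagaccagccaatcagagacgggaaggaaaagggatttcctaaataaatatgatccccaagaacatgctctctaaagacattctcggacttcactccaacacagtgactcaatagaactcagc
Ccr1: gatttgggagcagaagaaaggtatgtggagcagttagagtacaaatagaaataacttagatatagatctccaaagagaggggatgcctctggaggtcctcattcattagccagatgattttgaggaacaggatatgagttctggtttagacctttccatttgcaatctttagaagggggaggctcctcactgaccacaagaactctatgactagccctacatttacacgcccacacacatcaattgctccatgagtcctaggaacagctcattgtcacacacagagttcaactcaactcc
Il1bos: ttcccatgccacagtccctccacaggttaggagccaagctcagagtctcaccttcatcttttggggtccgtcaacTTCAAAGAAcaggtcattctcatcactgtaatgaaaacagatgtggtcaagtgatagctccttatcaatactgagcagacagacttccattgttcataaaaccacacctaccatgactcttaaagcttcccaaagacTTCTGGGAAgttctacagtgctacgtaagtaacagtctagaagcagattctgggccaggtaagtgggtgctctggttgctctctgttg

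The NF-kB letters lie from 44 to 35 bases before the start of Il6 and from 130 to 121 bases before that of Cxcl9. They occurred in 4.79% of all 32851 promoter windows and in 23 of the 126 windows of the members (18.3%). The STAT letters occurred in 8.30% of all windows and in 15 of the 126 (11.9%). Of the 104 members with a window, 22 held the NF-kB letters, 12 of them ligands and 9 receptors. A match of letters is a description of these windows, not a binding site.

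Total counts were 444461, 517057 and 514854 in DKO libraries 1, 2 and 3, and 312908, 500527 and 319863 in WT libraries 1, 2 and 3. Once scaled (normalized CPM, the count over the library size after scaling), 1 count was worth between 1.84 and 2.26 normalized CPM in DKO libraries and between 3.86 and 5.25 in WT libraries, so 3 counts, the most that a count of 0 allows, stand for 5.52 to 15.8 normalized CPM. Bnip3l had 10, 16 and 41 counts in DKO libraries 1, 2 and 3, against 1, 8 and 0 in WT libraries 1, 2 and 3. Bnip3 had 2, 24 and 11 counts in the DKO libraries, against 25, 62 and 6 in the WT libraries. The mean of Bnip3l goes against the labels, so every direction below is between libraries labelled DKO and libraries labelled WT. B cell markers were sparse: 3 of the 13 fixed were counted in all 6 libraries, and the defining gene Cd79a had 0, 2 and 4 counts in the DKO libraries, against 3, 0 and 0 in the WT libraries. Summed over the 13, they reached 280 to 428 normalized CPM in DKO libraries and 331 to 470 in WT libraries.

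The members as a whole took a similar, small share of the counts in both groups. They held 0.360%, 0.389% and 0.402% of all counts in DKO libraries 1, 2 and 3, and 0.365%, 0.402% and 0.362% in WT libraries 1, 2 and 3. The exact 95% intervals ran from 0.343% to 0.378% in DKO library 1 and from 0.385% to 0.420% in DKO library 3, and from 0.344% to 0.387% in WT library 1 and from 0.385% to 0.420% in WT library 2. These intervals hold counting error alone: reads of amplified cDNA are not separate molecules. Within that share, more different members were counted in the libraries labelled DKO: 107, 114 and 113 of 138 there, against 87, 88 and 87 in the WT libraries. All symbols moved in the same way, with 23580, 24787 and 24170 counted in the DKO libraries, against 17831, 18410 and 18486 in the WT libraries. After each library was thinned to the same 312908 counts, 102, 104 and 99 members were counted in the DKO libraries, against 87, 82 and 86 in the WT libraries. The groups did not overlap, and neither did they over all symbols, of which 63.1%, 65.2% and 63.2% were counted in the thinned DKO libraries, against 50.7%, 47.7% and 52.3% in the thinned WT libraries. In all, 132 members were counted in at least 1 library and 49 in every library. The 6 never counted were Cxcr3, the ligand genes Ccl19, Ccl21b and Ccl27b, and 2 pseudogenes of Ccl19.

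Ligands and receptors differed in how often they were seen. Of the 58 receptor genes, 31 were counted in all 6 libraries and 25 had enough counts to be tested. Of the 73 ligand genes, 16 were counted in all 6 and 16 were tested. In all 44 members passed the filter on low counts, 31.9% of them, against 25.3% of all symbols. Counts also followed the length of the gene. Across the 138 members the Spearman correlation of count with exonic length lay between 0.37 and 0.53 in DKO libraries and between 0.41 and 0.59 in WT libraries; across 21289 protein-coding genes it was 0.55 in each DKO library and between 0.48 and 0.49 in WT libraries. These genes share libraries and depth, and the values are descriptions.

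No member passed the test between the groups. In edgeR's quasi-likelihood test, adjusted by the Benjamini-Hochberg method over all 8895 genes tested, 0 of the 44 members had an adjusted p under 0.05, as had 0.0% of all genes, and the smallest adjusted p of a member was 0.389. At an unadjusted p under 0.05 there were 4 members higher in the libraries labelled DKO, Il6, Cxcl17, Cxcl9 and Il2rb, where 5.49% of all genes tested lay. Lower by the same measure were 4 members, Il17rb, Il1bos, Il9r and Il1rl1, where 6.59% of all genes lay. DESeq2 on the same genes called 3 members higher (Il6, Cxcl17 and Cxcl9), against 2.45% of all genes, and 3 lower (Il17rb, Il1bos and Il9r), against 4.31%; limma-voom called 0 members and 0.0% of all genes. Members whose libraries did not overlap numbered 17 of 132 higher in DKO (12.9%), against 9.53% of all symbols counted, and 7 of 132 lower (5.30%), against 3.98%. With library totals alone and no scaling factor this split became 23 higher and 1 lower, against 15.6% and 1.72% of all symbols. In these bulk samples fewer cells of a type and less RNA per cell cannot be told apart.

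**Figure D1:**
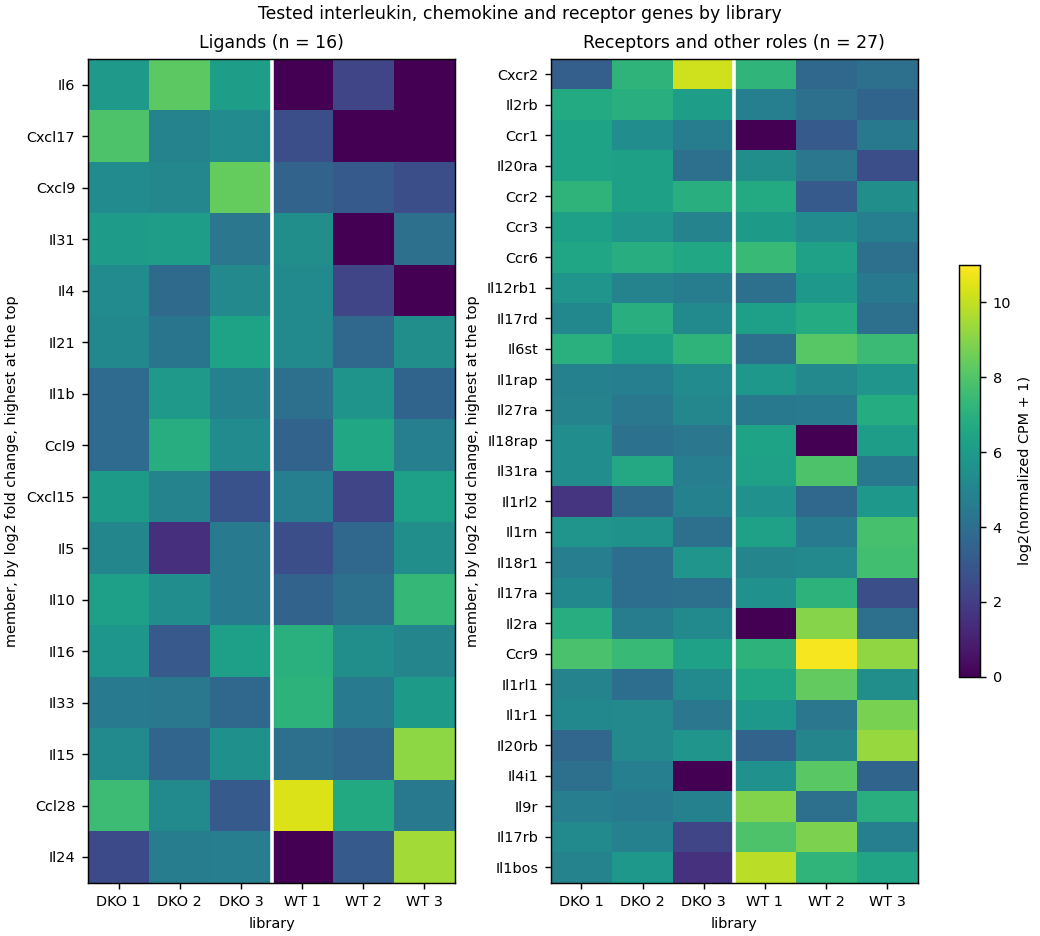
Heat maps of log2(normalized CPM + 1) of 43 of the 44 tested members (rows, highest log2 fold change at the top) in DKO libraries 1 to 3 and WT libraries 1 to 3 (columns), with 16 ligand genes on the left and 27 receptor and other genes on the right. The top rows are brighter across the DKO libraries, while most bottom rows have 1 bright cell in a single WT library, such as Il24 and Il15 in WT library 3 and Ccl28 in WT library 1.

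Among the 16 ligands tested, the largest differences were in Il6 and a pair of CXC chemokine genes, all with more counts in the libraries labelled DKO. Il6 (chromosome 5, 30013114 to 30019981, mm10), a cytokine that drives plasma cell and T helper responses and that activated B cells also make, had 26, 161 and 35 counts in DKO libraries 1, 2 and 3, against 0, 1 and 0 in WT libraries 1, 2 and 3. All DKO libraries were above all WT libraries, and DKO library 2 held 69.4% of the summed normalized CPM. It averaged 141 ± 135 normalized CPM in DKO libraries and 1.29 ± 2.23 in WT libraries (SD, n = 3 each), a log2 fold change of 6.26 (SE 1.47, edgeR adjusted p = 0.389). The value was 5.17 without DKO library 2 and 8.75 without WT library 2. Cxcl17 (chromosome 7, 25400053 to 25412886), a chemokine of mucosal surfaces, had 107, 16 and 20 counts in the DKO libraries, against 1, 0 and 0 in the WT libraries. The log2 fold change came to 5.73 (SE 1.57, edgeR adjusted p = 0.390), or 4.24 without DKO library 1 and 8.35 without WT library 1. The groups did not overlap, and DKO library 1 stood well above the other two.

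Cxcl9 (chromosome 5, 92321347 to 92328079) encodes a ligand of Cxcr3 that interferon gamma induces, and lies beside Cxcl10, which encodes another, and Cxcl11, a polymorphic pseudogene known to lack a functional product in C57BL/6 mice. It had 17, 18 and 173 counts in DKO libraries 1, 2 and 3, against 2, 2 and 1 in the WT libraries, with a log2 fold change of 4.06 (SE 1.28, edgeR adjusted p = 0.390), or 2.24 without DKO library 3. Every DKO library was above every WT library. Its neighbour Cxcl11 had 5, 12 and 6 counts in the DKO libraries, against 2, 0 and 1 in the WT libraries. Once scaled its groups did not overlap, by less than 1 WT count. Cxcl10 had 7, 9 and 1 counts in the DKO libraries, against 0, 3 and 0 in the WT libraries, and its groups overlapped. Cxcl10 and Cxcl11 were too low to be tested. The receptor Cxcr3 had 0 counts in every library, which allows at most 3 counts in each. Interferon gamma itself, Ifng, had 22, 19 and 40 counts in the DKO libraries, against 3, 28 and 4 in the WT libraries, with groups that overlapped.

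The other ligands higher by p were Il31, Il4 and Il21, all T cell cytokines, and none of their groups separated. Il31, which acts on skin and sensory neurons, had 29, 39 and 10 counts in the DKO libraries, against 8, 0 and 3 in the WT libraries (log2 fold change 1.47, SE 1.20). Il4, the class switch cytokine, had 17, 7 and 18 counts in the DKO libraries, against 7, 1 and 0 in the WT libraries (1.10, SE 1.22, or 3.62 without WT library 1). Il21, the cytokine of follicular helper T cells, had 15, 10 and 43 counts in the DKO libraries, against 7, 3 and 8 in the WT libraries (0.60, SE 1.00, or -0.079 without DKO library 3). T cell markers summed to 197 to 267 normalized CPM in DKO libraries and 394 to 1129 in WT libraries. These were 87, 145 and 102 counts in the DKO libraries, against 89, 102 and 215 in the WT libraries. Over library totals alone the groups overlapped. Of the 10 markers none was at 0 throughout and 5 were tested, with Cd3e (1.02) and Cd3g (0.23) above 0 and Bcl11b (-3.38), Cd4 (-1.38) and Cd28 (-1.36) below on the log2 scale. The part of T cells in these values was not tested.

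Some ligands were counted only in the libraries labelled DKO, at levels near the limit of detection. They were singled out after their values were seen. More symbols in all were counted in those libraries, 23580 to 24787, against 17831 to 18486 in WT libraries. The share of all symbols counted only in DKO libraries was not measured. Il12b, which encodes the chain shared by interleukins 12 and 23, had 15, 14 and 7 counts in DKO libraries 1, 2 and 3 and 0 in each WT library. Its partner Il12a had 0, 16 and 9 counts in the DKO libraries, against 2, 1 and 2 in the WT libraries. Ccl4, a chemokine made by activated B cells, had 4, 4 and 3 counts in the DKO libraries and 0 in each WT library. Ccl3, which lies near it on chromosome 11 and is usually made with it, had 2, 0 and 0 counts in the DKO libraries, against 3, 14 and 1 in the WT libraries. Each of these genes was too low to be tested.

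Of the 4 ligands among the members with the smallest p below 0, all but Il33 rested on 1 WT library each. Il24, of the interleukin 10 family, had 2, 13 and 13 counts in the DKO libraries, against 0, 2 and 137 in the WT libraries. Its log2 fold change of -3.72 (SE 1.78, edgeR adjusted p = 0.419) became 2.09 without WT library 3. Il15, which sustains memory lymphocytes and NK cells, had 16, 6 and 23 counts in the DKO libraries, against 3, 3 and 105 in the WT libraries, and its value of -2.64 became 1.23 without WT library 3. Ccl28, the mucosal chemokine that binds Ccr10, had 83, 20 and 4 counts in the DKO libraries, against 264, 26 and 4 in the WT libraries, and its value of -2.69 became 0.40 without WT library 1. Without these single libraries the direction of all 3 turned. Il33, the alarmin of stromal cells, differed from them in that its direction did not turn. It had 10, 11 and 6 counts in the DKO libraries, against 26, 6 and 12 in the WT libraries. Once scaled its groups did not overlap, but DKO library 1 and WT library 2 lay less than 1 WT count apart. At a log2 fold change of -2.00 (SE 1.00, edgeR adjusted p = 0.421) Il33 stayed between -2.39 and -1.15 with 1 library left out. With library totals alone its groups overlapped.

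Of the untested ligands, Ccl21a, Il18 and Cxcl12 had the most counts, nearly all in 1 library. Ccl21a, the Ccr7 ligand of T cell zone stroma, had 99 of its 101 counts in WT library 2, where the stromal chemokine Cxcl12 had 72 of its 88 and the follicular chemokine Cxcl13 71 of its 87. Il18 had 96 of its 99 counts in DKO library 2. Ccl21a was the 1 member called by edgeR when no filter was applied (log2 fold change -6.78, edgeR adjusted p = 0.0438; 130 of 31134 symbols called, 0.418%), and that call rests on WT library 2 alone. Stromal and endothelial markers summed to 418 to 511 normalized CPM in DKO libraries and 993 to 2684 in WT libraries, with groups that did not overlap; in WT library 2, which holds the Ccl21a, Cxcl12 and Cxcl13 counts, the sum was 993. The part of stromal cells in these values was not tested.

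**Figure D2:**
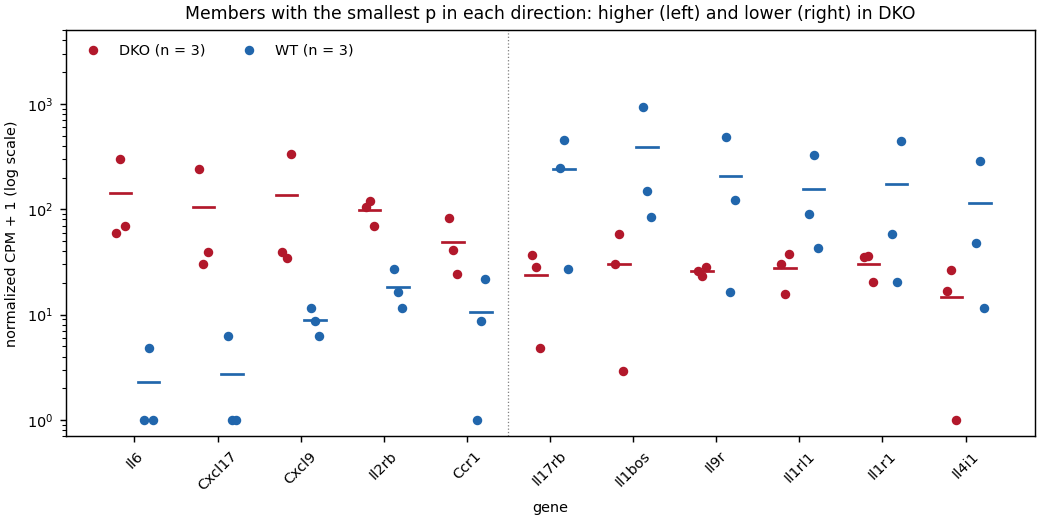
Normalized CPM plus 1 (log axis) of 5 members among those with the smallest p higher in DKO (left of the dotted line) and the 6 with the smallest p lower in DKO (right), with 1 point per library and a bar at the mean of the 3. The DKO points of Il6, Cxcl17, Cxcl9, Il2rb and Ccr1 all lie above the WT points, those of Ccr1 by less than 1 WT count. On the right the groups separate for Il1bos and Il1rl1 only, those of Il1rl1 by less than 1 count of WT library 3, and with library totals alone for neither.

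Among the interleukin receptors, 15 of the 18 tested had log2 fold changes below 0 and 3 above, with a median of -1.24, against -0.17 over all genes tested. Without scaling factors 12 were below 0 and the median was -0.47, against 0.62 over all genes, and without WT library 2 the 26 then tested split into 13 above and 13 below. The clearest exception was Il2rb (chromosome 15, 78479256 to 78495271), the signalling chain shared by interleukins 2 and 15. It had 46, 65 and 35 counts in DKO libraries 1, 2 and 3, against 5, 4 and 2 in the WT libraries. The DKO libraries lay close together and above every WT library, at 97.2 ± 26.6 normalized CPM in DKO libraries and 17.4 ± 7.98 in WT libraries (SD, n = 3 each). A log2 fold change of 2.46 (SE 0.97, edgeR adjusted p = 0.390) resulted, which stayed between 2.29 and 2.93 with any 1 library left out, the narrowest such range of the 23 members plotted by leave-one-out range.

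The partners of Il2rb did not share its pattern. Il2ra, the high-affinity chain, had 51, 13 and 19 counts in the DKO libraries, against 0, 134 and 3 in the WT libraries, and its log2 fold change of -1.61 became 2.88 without WT library 2. Il2rg, the common gamma chain, had 0, 0 and 1 counts in the DKO libraries and 0 in each WT library. Il15ra had 7, 14 and 15 counts in the DKO libraries, against 0, 8 and 4 in the WT libraries, with groups that overlapped. Il2, the ligand, had 11, 5 and 4 counts in the DKO libraries, against 1, 0 and 1 in the WT libraries. Once scaled its groups did not overlap, by less than 1 WT count. NK cells also use Il2rb: their 6 markers summed to 141 to 199 normalized CPM in DKO libraries and 52.5 to 162 in WT libraries, and their part in the value was not tested.

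Receptors of the interleukin 1 family lay below 0 together. Il1r2, Il1r1, Il1rl2, Il1rl1, Il18r1 and Il18rap lie within 478 kb on chromosome 1 (40074079 to 40551705), a grouping made after the values were seen. All 5 that were tested had log2 fold changes below 0, in each of the 3 other scalings, with the replicate block and with each library left out; Il1r2, too low to test, was at -0.10 with no filter. The summed level of the 6 genes was 145, 112 and 159 normalized CPM in DKO libraries 1, 2 and 3, against 308, 425 and 830 in the WT libraries, and these did not overlap. In WT library 2, Il1rl1 held 85 of the 110 counts summed, and in WT library 3 Il1r1 held 84 of the 158. Without Il1rl1 the sums overlapped. Il1rl1, the receptor of Il33 known as ST2, had 13, 8 and 19 counts in the DKO libraries, against 17, 85 and 8 in the WT libraries, with a log2 fold change of -2.50 (SE 1.06, edgeR adjusted p = 0.403), or -1.23 without WT library 2. Its groups did not overlap once scaled, by less than 1 count of WT library 3, but did with library totals alone. Il1r1, which binds interleukin 1, had 15, 19 and 10 counts in the DKO libraries, against 11, 5 and 84 in the WT libraries, and its value of -2.53 was -0.30 without WT library 3. None of the 5 passed the test over all genes. Il1rap, the accessory chain of some of these receptors, lies on chromosome 16 and was at -0.65 (SE 0.88). Markers of some other cells summed lower in the same libraries once scaled. The 10 stromal and endothelial markers summed to 418 to 511 normalized CPM in DKO libraries and 993 to 2684 in WT libraries. Of the 8 tested, 7 lay below 0. The 10 T cell markers summed to 197 to 267 in DKO libraries and 394 to 1129 in WT libraries. These sums overlapped with library totals alone. Of the 5 T cell markers tested, 3 lay below 0. In WT library 3, Vwf held 401 of the 511 stromal and endothelial counts and Bcl11b 142 of the 215 T cell counts. Not every marker list was lower. NK cell markers summed to 141 to 199 in DKO libraries and 52.5 to 162 in WT libraries. Basophil and mast cell markers summed to 75.5 to 105 in DKO libraries and 41.8 to 236 in WT libraries. No stromal, endothelial or T cell marker was at 0 throughout. The part of other cells in the receptor values was not tested.

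Other receptors at lower values included Il17rb and Il9r. Il17rb (chromosome 14, 29996135 to 30008896), the receptor of interleukin 25, had 16, 15 and 2 counts in DKO libraries 1, 2 and 3, against 47, 117 and 5 in the WT libraries. WT library 3 lay below DKO libraries 1 and 2 once scaled, and the fitted value was a log2 fold change of -3.41 (SE 1.26, edgeR adjusted p = 0.390; DESeq2 adjusted p = 0.0201). Il9r (chromosome 11, 32187541 to 32200279), the interleukin 9 receptor found on memory B cells, had 11, 12 and 14 counts in the DKO libraries, against 92, 4 and 23 in the WT libraries. The DKO libraries were nearly equal at 24.7 ± 2.52 normalized CPM, while the WT libraries spread over 206 ± 244 (SD, n = 3 each) and WT library 2 lay below all of them. The log2 fold change came to -3.04 (SE 1.21, edgeR adjusted p = 0.390), or -1.37 without WT library 1. Il20rb, of the interleukin 10 receptor family, had 5, 19 and 27 counts in the DKO libraries, against 2, 8 and 121 in the WT libraries, and its value of -2.76 turned to 0.71 without WT library 3. Its partner chain Il20ra had 36, 41 and 8 counts in the DKO libraries, against 8, 5 and 1 in the WT libraries (1.37, SE 1.07), with groups that overlapped.

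Beyond ligands and receptors, Il1bos and Il4i1 were lower by p. Il1bos, annotated as an antisense gene (chromosome 2, 129369897 to 129375748), overlaps Il1b on the other strand, so without a stated strand setting the reads of the pair cannot be told apart. It had 13, 31 and 1 counts in the DKO libraries, against 178, 38 and 16 in the WT libraries, with a log2 fold change of -3.70 (SE 1.44, edgeR adjusted p = 0.390), or -1.89 without WT library 1; with library totals alone the groups overlapped. Il1b had 6, 33 and 14 counts in the DKO libraries, against 3, 13 and 2 in the WT libraries (0.38, SE 1.01). Il4i1, a secreted amino acid oxidase induced by interleukin 4 in B cells, had 7, 14 and 0 counts in the DKO libraries, against 9, 74 and 2 in the WT libraries (-3.02, SE 1.44, or -0.99 without WT library 2). It overlaps Nup62 on the same strand, and Tbc1d17 and Atf5 on the other. Nup62 had 4, 11 and 13 counts in the DKO libraries, against 10, 3 and 1 in the WT libraries. Tbc1d17 had 3, 8 and 2 counts in the DKO libraries, against 153, 34 and 12 in the WT libraries. Their part in the value of Il4i1 was not tested.

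Chemokine receptors showed the opposite balance: of the 7 tested, 6 lay above 0 and only Ccr9 below, at a median of 1.12 (log2 fold change), and the count was the same in the 3 other scalings. With 1 library left out between 6 and 7 lay above 0, of 7 to 9 then tested. With no filter 12 of 16 lay above 0, against 17237 of all 31134 symbols. Of these receptor genes, 6 described here lie near each other on chromosome 9, where Cxcr6, Ccr1, Ccr1l1, Ccr3 and Ccr2 were above 0 with no filter and Ccr9 was below. The grouping was made after the values were seen. Ccr1, a receptor of inflammatory CC chemokines on monocytes and other myeloid cells, separated the groups, but once scaled by less than 1 WT count. It had 36, 22 and 12 counts in DKO libraries 1, 2 and 3, against 0, 2 and 4 in the WT libraries (log2 fold change 2.30, SE 1.17, edgeR adjusted p = 0.430, or 3.49 without WT library 3). The value stayed above 0 with each library left out, at no less than 1.83.

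Ccr2, the monocyte receptor of the same stretch, had 62, 41 and 61 counts in the DKO libraries, against 20, 2 and 8 in the WT libraries (1.12, SE 1.04), with groups that overlapped once scaled. Cxcr6, a receptor of resident T and NK cells, had 11, 66 and 9 counts in the DKO libraries, against 2, 2 and 0 in the WT libraries, with groups that did not overlap; it was too low to test and overlaps Fyco1 on the other strand. Ccr4, a receptor of T helper cells that lies apart from this stretch, had 10, 10 and 8 counts in the DKO libraries and 0 in each WT library. It was singled out after its values were seen, and the share of all symbols counted only in DKO libraries was not measured. Cxcr2, a neutrophil receptor, had 4, 78 and 600 counts in the DKO libraries, against 28, 3 and 3 in the WT libraries (2.92, SE 1.65, or 0.53 without DKO library 3), while its close relative Cxcr1 had 16, 2 and 6 counts in the DKO libraries, against 1, 167 and 2 in the WT libraries. Monocyte and macrophage markers summed to 414 to 848 normalized CPM in DKO libraries and 104 to 676 in WT libraries. In WT library 2, Fcgr1 held 105 and Csf1r 43 of their 175 counts. Of the 5 tested, Lyz2 (3.15) and Itgam (2.41) lay above 0 on the log2 scale. Fcgr1 (-1.49), Spic (-1.27) and Csf1r (-0.89) lay below. Neutrophil markers summed to 116 to 197 normalized CPM in DKO libraries and 146 to 452 in WT libraries. The part of these cells in the receptor values was not tested.

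**Figure D3:**
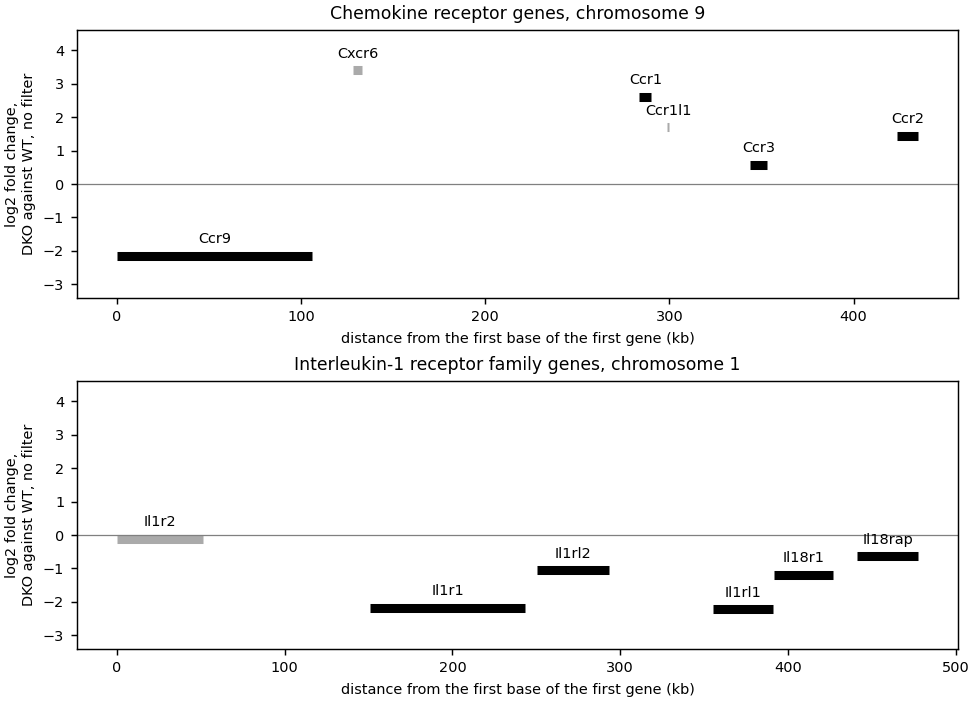
Log2 fold change, DKO against WT, fitted with no filter on low counts, of 6 chemokine receptor genes on chromosome 9 (top) and the interleukin-1 receptor family genes on chromosome 1 (bottom), against distance from the first gene in kb; the length of a bar is that of the gene, in black where the gene passed the filter and in grey where it did not. On chromosome 9 the genes plotted other than Ccr9 lie above 0, and on chromosome 1 all 6 lie below 0.

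Genes known in B cells showed no common direction. Of the 26 listed, 25 were counted and 8 were tested, of which 2 lay above 0 and 6 below (median -0.67, against -0.32 for the other 36 tested members and -0.17 for all genes). Without scaling factors 4 lay above 0 and 4 below, and without WT library 2 the 11 then tested split into 6 above and 5 below. At an unadjusted p under 0.05 there were Il6, higher, and Il9r, lower. With no filter 12 of 25 lay above 0, against 62 of the other 107 members.

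Receptors that place B cells in the spleen were among the least counted. Cxcr4 had 0, 4 and 0 counts in the DKO libraries and 0 in each WT library, Ccr7 1, 0 and 1 in the DKO libraries, against 1, 0 and 0 in the WT libraries, and Cxcr5 9, 5 and 2 in the DKO libraries, against 6, 2 and 0 in the WT libraries. Ccr10, the plasma cell receptor of Ccl28, had 0 counts in each DKO library, against 0, 0 and 7 in the WT libraries. A difference between the groups was not detectable at this depth for any of these. Ccr6, the memory B cell receptor of Ccl20, was better counted than these. It had 40, 62 and 48 counts in the DKO libraries, against 32, 20 and 3 in the WT libraries. Once scaled it was at 90.5, 114 and 93.0 normalized CPM in the DKO libraries, against 167, 77.3 and 15.8 in the WT libraries. Its log2 fold change was 0.19 (SE 0.99). The 3 DKO libraries lay between WT libraries 1 and 2. Ccr9, the gut-homing receptor of Ccl25, had 101, 91 and 40 counts in the DKO libraries, against 26, 474 and 109 in the WT libraries (-2.42, SE 1.42, or -1.13 without WT library 2).

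The interleukin receptors of B cells were mixed as well. Il6st, the signal chain for interleukin 6, had 56, 41 and 73 counts in the DKO libraries, against 3, 72 and 34 in the WT libraries (-0.46, SE 1.06, or 0.27 without WT library 2 and 0.36 with library totals alone), and Il6ra, its ligand-binding partner, had 9, 33 and 34 counts in the DKO libraries, against 5, 5 and 1 in the WT libraries. Il10ra had 0, 44 and 47 counts in the DKO libraries, against 0, 0 and 1 in the WT libraries, so that 2 of the 3 DKO libraries stood above all others. Il10, the ligand made by regulatory B cells, had 32, 22 and 11 counts in the DKO libraries, against 2, 4 and 30 in the WT libraries (-0.44, SE 1.14, or 1.81 without WT library 3). Il4ra had 1, 7 and 9 counts in the DKO libraries, against 2, 21 and 28 in the WT libraries, and Il7r, the receptor of B cell progenitors, had 5, 3 and 9 counts in the DKO libraries, against 29, 3 and 27 in the WT libraries; once scaled, 1 WT library lay among the DKO libraries for each of them, WT library 1 for Il4ra and WT library 2 for Il7r. Il27ra had 13, 11 and 17 counts in the DKO libraries, against 4, 6 and 21 in the WT libraries (-0.89, SE 0.99, or 0.38 without WT library 3). Il21r had 10, 4 and 6 counts in the DKO libraries, against 0, 16 and 0 in the WT libraries, and Il13ra1 had 22, 8 and 4 in the DKO libraries, against 4, 17 and 0 in the WT libraries. Il5ra, Il10rb and the chemokine gene Ccl22 each had at most 10 counts in any library and overlapping groups.

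**Figure D4:**
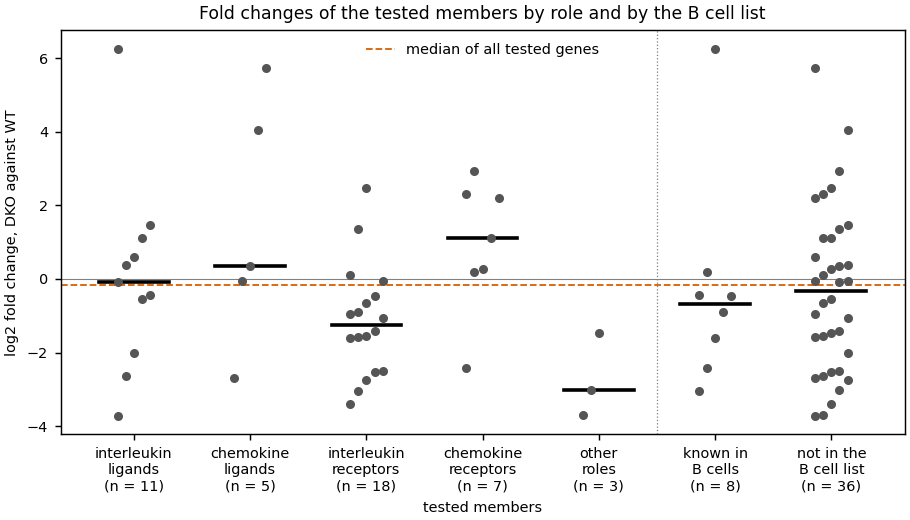
Log2 fold change, DKO against WT, of the 44 tested members, 1 point each, by role and family (left of the dotted line) and by the B cell list (right), with a black bar at the median and a dashed line at the median of all tested genes (-0.17). Interleukin receptors lie mostly below 0 (15 of 18) and chemokine receptors mostly above (6 of 7); with library totals alone the first count is 12 of 18.

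Levels can be compared between genes only per length. Per kilobase of exon, the highest means in the DKO libraries were those of Cxcr2 (144 ± 207 normalized CPM per kb, SD, n = 3), Cxcl17 (136 ± 158) and Il6 (58.1 ± 55.4), each carried by 1 library, and none of these neighbours differed beyond its spread. The highest in the WT libraries were those of Il24 (175 ± 298), Ccl21a (149 ± 252) and Cxcr1 (148 ± 247), again each carried by 1 library and not different beyond the spread. Ccr6 was eighth in the DKO libraries at 42.8 ± 5.60 normalized CPM per kb, with 37.4 ± 32.8 in the WT libraries. Of the 109 members with at least 10 counts in all, 48 (44.0%) had over 50% of their summed normalized CPM in 1 library, close to the 46.8% of all symbols with that many counts. That library was labelled DKO for 17 of the 48 and WT for 31 (64.6%), close to the split over all such symbols, DKO for 3468 and WT for 7047 (67.0%).

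**Figure D5:**
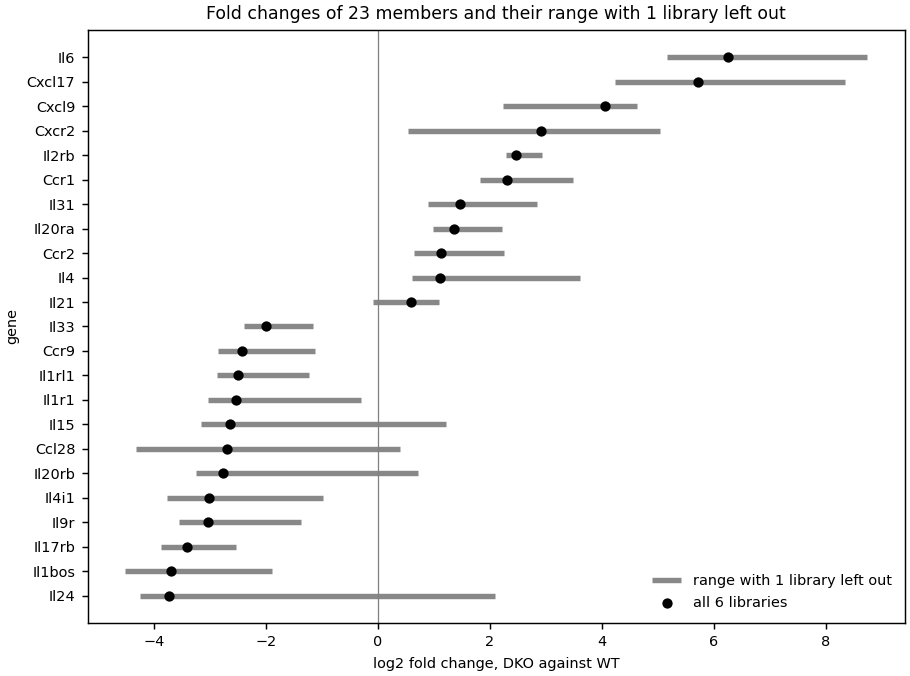
Log2 fold change, DKO against WT, of 11 members among those with the smallest p above 0 and the 12 with the smallest p below 0 (points, all 6 libraries) with the range of values when 1 library is left out (grey bars). The bars of Il24, Il15, Il20rb, Ccl28 and Il21 cross 0, and that of Il2rb, from 2.29 to 2.93, is the shortest.

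Genes that act after these receptors did not pass the test in either direction. Of 18 tested genes among 29 for signalling after interleukin receptors (JAK kinases, STAT factors, SOCS inhibitors and interleukin 1 adaptors), 10 lay above 0 and 8 below, and the median was 0.07 (log2 fold change). The smallest p was that of Stat6, the interleukin 4 signal transducer, with 6, 11 and 16 counts in the DKO libraries, against 0, 10 and 58 in the WT libraries (-2.38, SE 1.39). Of 13 tested genes among 27 for chemokine receptor signalling, 7 lay above 0 and 6 below (median 0.16). Grk5, a kinase that desensitizes such receptors, had 28, 214 and 16 counts in the DKO libraries, against 1, 3 and 9 in the WT libraries (2.93, SE 1.28, edgeR adjusted p = 0.404), and Rgs1, a brake on G protein signals, had 3, 12 and 7 counts in the DKO libraries, against 19, 0 and 19 in the WT libraries (-2.18, SE 1.29). Of 11 tested relatives outside the name pattern, 7 lay above 0 and 4 below (median 0.14), with the scavenging receptor gene Ackr4 at 1.92 (SE 1.07) and the interferon receptor gene Ifnar1 at 2.02 (SE 0.96).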

How the data were processed

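Whole-number counts of reads by gene symbol, in 6 columns that carry the samples' names, are what the authors deposited. Per the submitters' processing notes, mm10 was the build and STAR, CASAVA, R 3.6.3 and edgeR were used, in roles they do not state; which counter, strand setting and annotation made the counts is not given in the sources used here. Reads of overlapping genes and near-identical copies (Il11ra1 and Il11ra2, Ccl21a and Ccl21b) are therefore uncertain.

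The main test was that of edgeR 4.0.16 in R 4.3.3, with limma 3.58.1 beside it: filterByExpr with a minimum count of 10, TMM scaling, robust quasi-likelihood F test, no covariate, Benjamini-Hochberg adjustment over 8895 genes, threshold 0.05. The SE was taken as the size of the fold change (log2) over the root of F. DESeq2 1.42.0 ran on the same genes. Tests were tried on simulated counts. GENCODE mouse release 21 (mm10) gave gene positions and lengths of exons, and all 138 members matched 1 gene there; promoter sequences are from RefSeq on GRCm38.p6. Python 3.11.15 with scipy 1.17.1 made the tables.

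Members and lists were chosen with earlier results of these data known. Named were the 12 tested members with the smallest p in each direction, except 1 that is not reported here, the B cell list, the 6 untested members with the most counts, and Bnip3l and Bnip3; up to 4 genes per signalling list were named by p. Il12b, Ccr4, Il2, Il15ra, Cxcl10, Cxcl11, Cxcl13, Il1b, Ifng, Cd79a, the T cell markers and the neighbours of Ccr1 and Il1r1 with Il1rap were chosen after their values were seen. Alternatives were other scalings, filters and tools, a replicate block, each replicate left out, and thinning.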

Additional observations from a re-analysis of the deposited data

How the results depend on the processing

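In edgeR 0 genes passed an adjusted p of 0.05 with any scaling, with a mean CPM of at least 10, with the replicate block or with any 1 library left out; 130 passed with no filter on low counts, and DESeq2 called 601. At an unadjusted p under 0.05, 4 of 44 members were higher in DKO (9.09%, all genes 5.49%), against 7 with DESeq2 (15.9%, all genes 8.39%), 2 with limma-voom (4.55%, all 3.99%), 8 of 84 with a mean CPM of at least 10 (9.52%, all 6.12%) and 11 of 132 with no filter (8.33%, all 5.76%). Lower were 4 (9.09%, all 6.59%), against 9 with DESeq2 (20.5%, all 13.4%), 2 with limma-voom (4.55%, all 5.17%), 0 with library totals alone (all 2.47%) and 13 with no filter (9.85%, all 7.09%). With 1 library left out these counts ran from 3 to 8 higher (all genes 3.71% to 8.53%) and from 0 to 8 lower (all genes 2.74% to 8.09%). The 8 higher were without WT library 1. The lower count was 0, 2 and 1 without DKO library 1, 2 and 3 in turn, and 8, 8 and 7 without WT library 1, 2 and 3. Tested members had a median of -0.51 (log2), which was 0.23 with library totals alone, 0.059 with a mean CPM of at least 10, 0.26 with no filter and -0.14 with the replicate block, and ran from -0.66 to 0.21 with 1 library left out. The median of all genes moved with it, at -0.17 with TMM and 0.62 with library totals alone. Thinning changed the members counted to 102, 104 and 99 in DKO libraries 1, 2 and 3 and to 82 and 86 in WT libraries 2 and 3.

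Of the 31 tested genes followed by name, 240 of 248 values kept their direction under the other settings. Il10 turned to 0.31 with library totals alone, 0.051 in limma-voom and 0.49 with the replicate block; Il6st to 0.36, 0.22 and 0.051 under the same; Il2ra to 1.06 in limma-voom and 0.79 with the replicate block. With 1 library left out 10 genes crossed 0: Ccl28 (-4.32 to 0.40), Ccr6 (-0.23 to 1.14), Il10 (-0.87 to 1.81), Il15 (-3.16 to 1.23), Il20rb (-3.25 to 0.71), Il21 (-0.079 to 1.09), Il24 (-4.26 to 2.09), Il27ra (-1.21 to 0.38), Il2ra (-2.45 to 2.88) and Il6st (-0.93 to 0.27). Most of the genes followed were named for a small p. Over all 44 tested members the leave-one-out range crossed 0 for 18. Leaving out 1 library moved 40 of the 44 over 1.5-fold. The cause was not tested. The labels do not say whether replicate numbers pair the samples. Deviations of same-numbered libraries correlated at 0.02, 0.03 and 0.04 across genes, and each library correlated best with its own number. These deviations were centred within each group, which ties the correlations to each other, so they cannot settle pairing. In edgeR the replicate block left 4 members higher and 3 lower at an unadjusted p under 0.05, with 12 of 18 interleukin receptors below 0. With 1 count worth up to 5.25 normalized CPM, depth limits every member named as too low to test.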
